A study of Mus musculus with 12 samples.

Results

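The PAR bZIP factors Dbp, Tef and Hlf and the repressor Nfil3 are transcription factors that bind a shared DNA element, the D-box. These 4 genes were taken by symbol, mapped from the Ensembl gene identifiers, out of the 57180 genes counted in mouse kidney, and all 4 passed the filter on low counts. They were chosen by their measured expression in the control and treated groups together with their symbols, so their differences between groups are given as a description, with no test.

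The PAR bZIP factors carry a domain rich in proline and acidic residues next to a basic leucine zipper and activate transcription at D-boxes, whereas Nfil3, a basic leucine zipper protein without that domain, represses transcription at the same elements. In the circadian clock, the Bmal1 and Clock dimer drives Dbp, Tef and Hlf through E-boxes, while REV-ERB and ROR nuclear receptors act on Nfil3 through ROR response elements, so that activators and repressor peak at different times of day. In liver and kidney the PAR bZIP factors are known for their control of genes of drug and lipid metabolism.

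Male C57BL/6J mice, young adult at the start, received 1 intraperitoneal injection a day for 28 days and were then killed. The control group received the vehicle, saline with Tween 80, and the treated groups received cannabidiol (CBD) in it at 10 or 20 mg CBD/kg b.w., named below the 10 mg and 20 mg groups. Each group held 4 mice, and each mouse gave 1 library of poly(A) RNA from whole kidney, so that fewer cells of a type and less RNA per cell cannot be told apart. When in the day the animals were killed is not given in the sources used here.

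Total counts per library were 17946614 to 23532088 in the control group, 15417867 to 21977253 in the 10 mg group and 16306563 to 18219064 in the 20 mg group. Expression is given below as CPM, the usual scale of counts relative to library size, after normalization between libraries, per kilobase of transcript where genes are compared with each other, and a gene is named called when its Benjamini-Hochberg adjusted p in the edgeR quasi-likelihood test is under 0.1. Counting error and amplification of the same molecule are both part of the spread between mice, and no interval for counting error alone is given.

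Libraries differed in the share of counts from mitochondrially encoded genes. It was 12.8%, 5.77%, 17.5% and 13.5% in control mice 1 to 4, 3.53%, 15.3%, 4.55% and 15.3% in 10 mg mice 1 to 4, and 20.6%, 23.4%, 5.54% and 14.0% in 20 mg mice 1 to 4. Control mouse 2, 10 mg mice 1 and 3 and 20 mg mouse 3 lay under 10% and stood apart from the other 8, so values are also given without these 4 libraries. A fit of the 4 low libraries alone was not made, since they hold 1 control, 2 10 mg and 1 20 mg mouse.

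Dbp (ENSMUSG00000059824, GRCm39 chr7:45354512-45359627, plus strand) encodes the D-box binding protein, a PAR bZIP activator. The 200 bases before the start of its canonical transcript, from which motif positions are counted in all genes, are shown because Dbp changed most of the 4 genes. Capitals mark a ROR response element found in them (RORE, searched by that name on both strands). It was the only motif found within 2500 bases of the Dbp start, where E-box (CACGTG), D-box (TTACGTAA), a D-box variant (TTATGTAA) and RORE were searched on both strands.

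Dbp chr7:45354312-45354511: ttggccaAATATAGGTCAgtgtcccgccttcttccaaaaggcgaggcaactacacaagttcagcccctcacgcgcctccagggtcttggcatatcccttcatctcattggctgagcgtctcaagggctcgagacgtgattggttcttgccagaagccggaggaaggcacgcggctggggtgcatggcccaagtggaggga

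In windows of the same size around the starts of 21768 protein-coding genes, a RORE was found in 7.82%, an E-box in 48.5%, the D-box TTACGTAA in 1.32% and the variant TTATGTAA in 18.4%. A match is only a run of letters, and nothing about binding follows from it.

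Dbp expression was 1.43, 2.19, 2.92 and 2.88 CPM in the 4 control mice. In the 10 mg group it was 14.9, 12.9, 19.6 and 15.3 CPM. In the 20 mg group it was 22.4, 22.1, 24.5 and 26.9 CPM. Every treated mouse lay above every control mouse, and every 20 mg mouse lay above every 10 mg mouse, so the 3 groups did not overlap. Dbp was counted 34 to 58 times in the control libraries, 196 to 434 times in the 10 mg libraries and 369 to 476 times in the 20 mg libraries. Group means were 2.36 ± 0.703 CPM (SD, n = 4) in the control group, 15.7 ± 2.81 CPM in the 10 mg group and 24.0 ± 2.22 CPM in the 20 mg group. Expression was increased 6.71-fold in the 10 mg group (log2 fold change 2.75 ± 0.21, SE) and 10.2-fold in the 20 mg group (3.35 ± 0.21). Relative to its mean, Dbp varied most between control mice, with a coefficient of variation of 29.8%, against 17.9% in the 10 mg group and 9.28% in the 20 mg group.

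**Figure D1:**
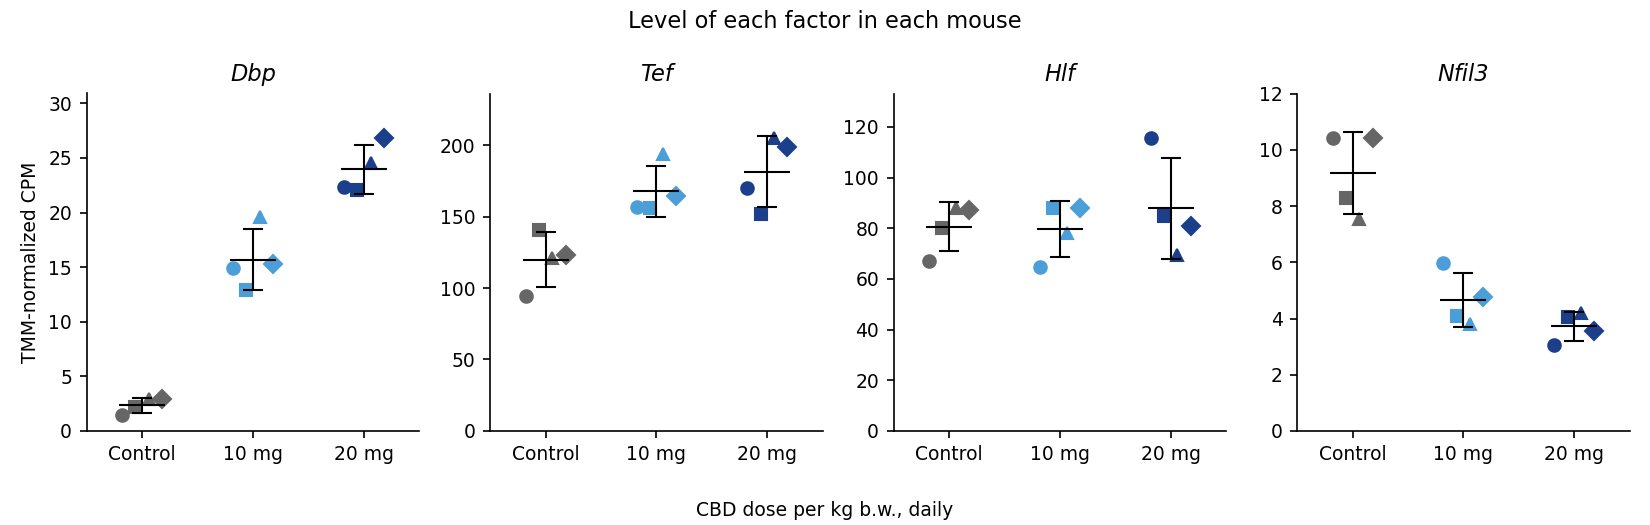
Expression (TMM-normalized CPM, linear axis from 0) of Dbp, Tef, Hlf and Nfil3 in each of the 12 mice, with a symbol for each replicate number, the mean of each group as a line and its SD as error bars. Dbp sits between 1.43 and 2.92 CPM in control mice and between 12.9 and 26.9 CPM in treated mice, and Nfil3 is lower in all treated mice than in any control mouse.

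Dbp overlaps the 3' end of Sphk2 (chr7:45358891-45367426, minus strand) over 737 bases, of which 539 are exonic in both genes. The strand setting used in the counting is not stated, although the library kit was directional, so the gene to which reads from those bases went is uncertain. Sphk2 stood at 34.8 ± 7.54 CPM in the control group, 36.7 ± 3.93 CPM in the 10 mg group and 34.7 ± 6.00 CPM in the 20 mg group. Its log2 fold change was 0.08 in the 10 mg group (adjusted p = 0.963) and -0.01 in the 20 mg group (adjusted p = 0.997).

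Tef (ENSMUSG00000022389, chr15:81686622-81711064, plus strand) encodes thyrotroph embryonic factor, another PAR bZIP activator. The region before the start of its canonical transcript, base 81695615 and inside the gene's span, is shown because it holds 3 E-boxes, at -471, -360 and -138 bases from that start, a number that 4.93% of the 21768 windows reached or passed. Capitals mark the E-box in the 200 bases before the start and in the 30-base surroundings of the other 2, of which the second lies in an exon of another Tef transcript.

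Tef chr15:81695415-81695614: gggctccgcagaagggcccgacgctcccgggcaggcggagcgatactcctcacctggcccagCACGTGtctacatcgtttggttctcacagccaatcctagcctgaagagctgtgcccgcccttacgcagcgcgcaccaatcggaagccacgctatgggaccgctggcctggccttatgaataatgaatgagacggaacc
Tef E-box at chr15:81695144-81695149: gcgccgcagccgCACGTGcagagcctcgtg
Tef E-box at chr15:81695255-81695260: ctgctgccgctcCACGTGaccctcggggct

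Tef expression was 94.2, 141, 121 and 123 CPM in the 4 control mice. At 10 mg it was 157, 156, 194 and 165 CPM. At 20 mg it was 170.0, 152, 205 and 199 CPM. Treated mice were all higher than the control mice, control mouse 1 was the lowest of the 12, and the 10 mg and 20 mg groups overlapped. The means were 119.8 ± 19.2 CPM in the control group, 168 ± 17.7 CPM in the 10 mg group and 182 ± 24.9 CPM in the 20 mg group. Expression was increased 1.40-fold in the 10 mg group (log2 fold change 0.49 ± 0.14, SE) and 1.52-fold in the 20 mg group (0.60 ± 0.14). The non-coding gene Gm17597 overlaps Tef on the opposite strand with 193 exonic bases, and it had 5 to 17 counts per library. Its log2 fold change in the 20 mg group was 0.99 (adjusted p = 0.534).

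Hlf (ENSMUSG00000003949, chr11:90227221-90281761, minus strand) encodes hepatic leukemia factor, the remaining PAR bZIP activator. It held 1 E-box within 2500 bases of its start, in an intron of the canonical transcript 1292 bases downstream and in an exon of another Hlf transcript, which is shown for comparison with Tef.

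Hlf E-box at chr11:90280464-90280469: gctgagcaggctCACGTGtaaccgcgtgca

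Hlf expression was 67.2, 79.9, 88.1 and 87.3 CPM in the 4 control mice. At 10 mg it was 64.7, 88.1, 78.0 and 88.1 CPM. At 20 mg it was 115.8, 85.0, 69.6 and 80.7 CPM. The 3 groups overlapped, and 20 mg mouse 1 was the highest of the 12. The means were 80.6 ± 9.68 CPM in the control group, 79.7 ± 11.1 CPM in the 10 mg group and 87.8 ± 19.8 CPM in the 20 mg group. The log2 fold change was -0.02 ± 0.16 (SE) in the 10 mg group and 0.12 ± 0.16 in the 20 mg group, both smaller than their standard errors. Control and treated mice thus overlapped for Hlf and not for Dbp and Tef, which is a description of chosen genes with no test. Mmd overlaps the span of Hlf on the opposite strand with no shared exonic base, and its log2 fold change was -0.26 in the 10 mg group (adjusted p = 0.870) and 0.03 in the 20 mg group (adjusted p = 0.980).

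Nfil3 (ENSMUSG00000056749, chr13:53121245-53137010, minus strand) encodes the repressor. The surroundings of its motifs are shown because Nfil3 alone of the 4 genes held copies of the D-box variant near the start of its canonical transcript, 3 in the intron at 619, 1535 and 2320 bases downstream. That start is base 53135367, inside the gene's span, since another transcript starts before it. As many copies or more were found in 62 of the 21768 windows (0.285%). The variant reads TTACATAA where it lies on the other strand, 2 of the 3 lie in exons of other Nfil3 transcripts, and capitals mark each motif. An E-box lay at -408 bases and a RORE 2452 bases downstream in the intron. None of the 4 genes held the D-box TTACGTAA in its window.

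Nfil3 D-box variant at chr13:53134741-53134748: cggggcatgcaTTACATAAacttttgctgc
Nfil3 D-box variant at chr13:53133825-53133832: gaaatgtgaggTTATGTAActgccgaattt
Nfil3 D-box variant at chr13:53133040-53133047: tagcgtaccatTTACATAAttgaactacaa
Nfil3 E-box at chr13:53135770-53135775: ccgccacctctcCACGTGgtcggggacaca
Nfil3 RORE at chr13:53132905-53132915: agcagacccTGACCCACTTTgcgtgctgg

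Nfil3 expression was 10.4, 8.30, 7.56 and 10.4 CPM in the 4 control mice. In the 10 mg group it was 5.97, 4.09, 3.79 and 4.75 CPM. In the 20 mg group it was 3.05, 4.07, 4.20 and 3.56 CPM. Every treated mouse lay below every control mouse, and the 10 mg and 20 mg groups overlapped. Nfil3 was counted 150 to 248 times in the control libraries, 62 to 135 times in the 10 mg libraries and 52 to 70 times in the 20 mg libraries. The means were 9.18 ± 1.47 CPM in the control group, 4.65 ± 0.964 CPM in the 10 mg group and 3.72 ± 0.527 CPM in the 20 mg group. Expression was decreased to 0.508 of the control level in the 10 mg group (log2 fold change -0.98 ± 0.19, SE) and to 0.405 in the 20 mg group (-1.30 ± 0.19).

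In the shorter promoter windows of RefSeq (GRCm38.p6, 300 bases each, 32851 windows), all 4 genes were found. An E-box lay in both windows of Tef, against 7.15% of all windows, and the nuclear receptor element AGGTCA lay in the window of Nfil3, on the opposite strand, against 16.3% of all windows. The windows of Dbp and Hlf held none of the motifs searched, which were found in 0.119% (TTACGTAA), 0.938% (TTATGTAA) and 0.384% (RORE) of all windows.

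Between the 10 mg and the control group 3 of the 4 genes did not overlap, where 3.19% of the 17163 genes tested did not overlap. Of these, 2 were higher (Dbp and Tef), against 1.55% of all genes tested, and 1 was lower (Nfil3), against 1.64%. The same 3 did not overlap between the 20 mg and the control group, against 5.30% of all genes tested, 2.67% higher and 2.63% lower. Called genes were 1 of 4 at 10 mg (Dbp, higher), against 0.0291% of all genes tested, 0.0117% higher and 0.0175% lower. At 20 mg 2 of 4 were called (Dbp higher and Nfil3 lower), against 0.303%, 0.169% higher and 0.134% lower. Nothing is read from these counts, since the genes were chosen with these comparisons known.

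Without the 4 libraries low in mitochondrial counts, the log2 fold change of Dbp was 2.57 in the 10 mg group and 3.32 in the 20 mg group. That of Tef was 0.50 and 0.62. That of Nfil3 was -1.10 and -1.41. These lay close to the values over 12 mice. Hlf went from -0.02 to 0.12 in the 10 mg group, a change of sign within 1 standard error, and stood at 0.22 in the 20 mg group.

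Per kilobase of the canonical transcript, the order in the control group was Tef (28.2 ± 4.52 CPM per kb), Hlf (13.8 ± 1.66), Nfil3 (4.02 ± 0.646) and Dbp (1.28 ± 0.383), with no overlap between neighbours. In the 10 mg group it was Tef (39.5 ± 4.18), Hlf (13.7 ± 1.90), Dbp (8.54 ± 1.53) and Nfil3 (2.04 ± 0.422), again with no overlap between neighbours. In the 20 mg group it was Tef (42.8 ± 5.88), Hlf (15.1 ± 3.40), Dbp (13.0 ± 1.21) and Nfil3 (1.63 ± 0.231). There Hlf, between 11.9 and 19.9 CPM per kb, and Dbp, between 12.0 and 14.6, overlapped. Dbp and Nfil3 thus changed places between the control group and both treated groups. With the length of all annotated exons in place of the canonical transcript, the order of the group means was the same, but Tef (11.4 to 17.0 CPM per kb) and Hlf (9.70 to 12.7) overlapped in the control group, and Hlf and Dbp did not overlap in the 20 mg group. Dbp was then at 0.679, 4.52 and 6.91 CPM per kb and Nfil3 at 1.85, 0.939 and 0.751 in the control, 10 mg and 20 mg groups.

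**Figure D2:**
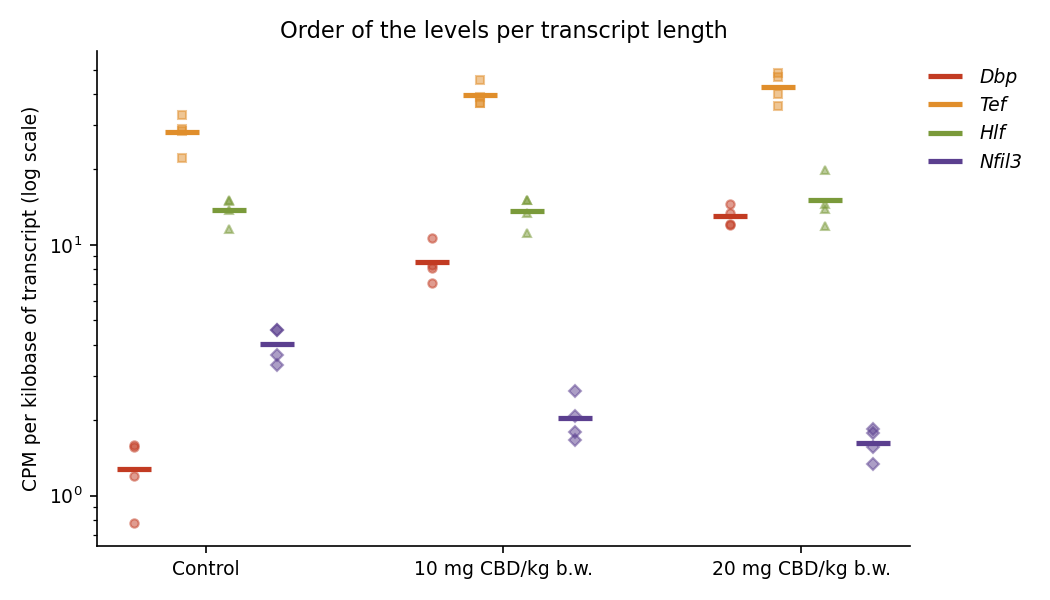
Expression per kilobase of canonical transcript (CPM per kb, log axis) of the 4 genes in each mouse, by group, with a line at each mean. Tef is highest in every group, and Dbp lies under Nfil3 in control mice and above it in treated mice.

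The summed level of the 3 activators per kilobase was 43.3 ± 6.03 CPM per kb in the control group, 61.8 ± 5.86 in the 10 mg group and 70.9 ± 5.78 in the 20 mg group. Dbp made up 2.92% ± 0.648 of that sum in the control group, 13.8% ± 1.44 in the 10 mg group and 18.4% ± 1.18 in the 20 mg group. The ranges of this share, 2.25% to 3.52%, 11.9% to 15.3% and 16.9% to 19.4%, did not overlap. Tef made up 65.0%, 64.0% and 60.2% of the sum on average and Hlf 32.1%, 22.2% and 21.4%. Tef was therefore the main activator transcript in all groups on this scale.

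The ratio of Dbp to Nfil3 per kilobase was 0.170, 0.329, 0.481 and 0.343 in the 4 control mice. In the 10 mg group it was 3.10, 3.93, 6.42 and 4.01. In the 20 mg group it was 9.13, 6.75, 7.26 and 9.39. It lay under 1 in all control mice and above 3 in all treated mice, and the 3 groups did not overlap. The balance of the family, the log2 ratio of the summed activators to Nfil3 per kilobase in the same mouse, was 2.92, 3.72, 3.77 and 3.32 in the control mice. In the 10 mg group it was 4.43, 5.04, 5.39 and 4.90, and in the 20 mg group 5.76, 5.13, 5.33 and 5.60. Control mice lay below all treated mice, and the treated groups overlapped. The mean balance was 3.43 ± 0.40 in the control group, 4.94 ± 0.40 in the 10 mg group and 5.45 ± 0.28 in the 20 mg group, differences from the control group of 1.51 and 2.02. Without Dbp in the sum these differences were 1.34 and 1.77, so most of each difference remained without Dbp. The 20 mg group lay 0.51 above the 10 mg group, with a pooled SD of 0.34.

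**Figure D3:**
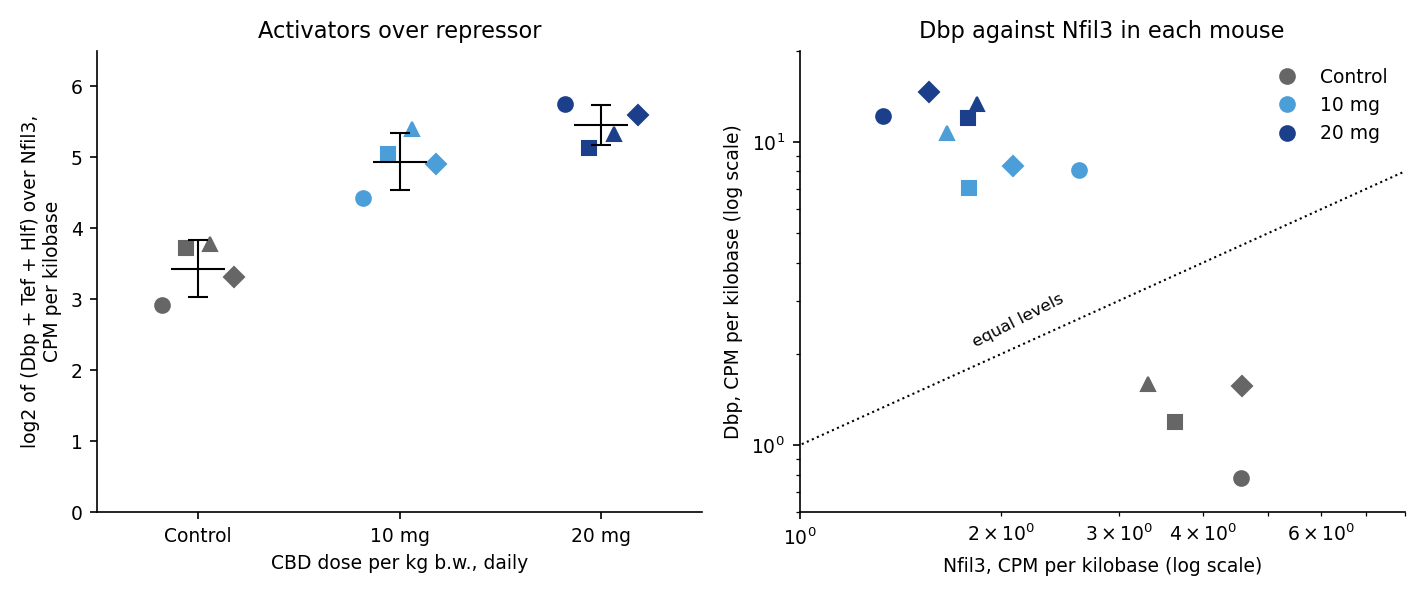
Left, the balance of the family (log2 of summed Dbp, Tef and Hlf over Nfil3, each in CPM per kb) in each mouse by group, with mean and SD, and right, Dbp against Nfil3 (CPM per kb, log axes) in each mouse, with a dotted line where both are equal. The balance is between 2.92 and 3.77 in control mice and between 4.43 and 5.76 in treated mice, and control mice lie below the dotted line and treated mice above it.

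The comparison of the 20 mg with the 10 mg group asks how expression differed between the doses. The treated groups' values were known when the genes were chosen, so it too is a description of the 4 genes, with no test. Dbp was 1.53-fold higher in the 20 mg group (log2 fold change 0.61 ± 0.18, SE), with all 4 mice of the 20 mg group above all 4 of the 10 mg group. The log2 fold change was 0.11 ± 0.14 for Tef, 0.14 ± 0.16 for Hlf and -0.33 ± 0.19 for Nfil3. The groups overlapped for these 3 genes. When each library was left out in turn, the difference ranged from 0.53 to 0.74 for Dbp. It ranged from 0.05 (without 20 mg mouse 3) to 0.19 (without 20 mg mouse 2 or 10 mg mouse 3) for Tef, with 0.07 without 20 mg mouse 4. For Nfil3 it ranged from -0.42 (without 10 mg mouse 3) to -0.18 (without 10 mg mouse 1).

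Between the doses, 1 of the 4 genes (Dbp) did not overlap, against 3.10% of all genes tested, 1.70% higher and 1.40% lower in the 20 mg group, and 0 of 4 were called, against 0% of all genes tested by edgeR. At an unadjusted p under 0.05 edgeR found 1083 genes, while DESeq2 called 12 and limma-voom called 0. Nothing is read from the counts of members here either. Without the 4 libraries low in mitochondrial counts the difference in Dbp was 0.76. In Hlf the difference was not steady in sign, at -0.022 without 20 mg mouse 1 and -0.0078 with the mitochondrial share as a covariate.

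Within groups, after the group mean was removed, 6 pairs of genes were compared over 12 mice by permutation of mice within groups. Dbp and Tef had a Pearson r of 0.71 (permutation p = 0.0302, adjusted p = 0.0955) and a Spearman rho of 0.74 (permutation p = 0.0178, adjusted p = 0.107), and r was 0.59 without the 2 mice farthest from the median. It was 0.44 without control mouse 1, with an adjusted permutation p of 0.579, and 0.84 without control mouse 2, with an adjusted permutation p of 0.0290, so the relation rests in part on control mouse 1. Hlf and Nfil3 had an r of -0.67 (permutation p = 0.0318, adjusted p = 0.0955) and a rho of -0.64 (permutation p = 0.0415, adjusted p = 0.125), and r was -0.56 without the 2 farthest mice. Mice of a group with more Dbp thus tended to have more Tef, and mice with more Hlf less Nfil3, but neither relation passed 0.05 after adjustment.

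The other pairs were weaker. For Tef and Nfil3, r was -0.35 (permutation p = 0.302, adjusted p = 0.537) and rho -0.27 (permutation p = 0.431, adjusted p = 0.863), with r at -0.13 without the 2 farthest mice. For Dbp and Nfil3, r was -0.30 (permutation p = 0.397, adjusted p = 0.537) and rho -0.20 (permutation p = 0.576, adjusted p = 0.864), with r at 0.02 without the 2 farthest. For Dbp and Hlf, r was 0.22 (permutation p = 0.448, adjusted p = 0.537) and rho 0.01 (permutation p = 0.992, adjusted p = 0.992), with r at -0.16 without them. For Tef and Hlf, r was -0.01 (permutation p = 0.976, adjusted p = 0.976) and rho -0.07 (permutation p = 0.847, adjusted p = 0.992), with r at -0.42 without them. Among mice of the same treatment, Dbp and Nfil3 therefore showed no relation that held up, although their group means moved in opposite directions.

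The mitochondrial share of counts was compared with the 4 genes in the same way. For Hlf, r was 0.67 (permutation p = 0.0391, adjusted p = 0.157) and rho 0.73 (permutation p = 0.0242, adjusted p = 0.0970), with r at 0.61 without the 2 mice farthest from the median. For Tef, r was -0.55 (permutation p = 0.0788, adjusted p = 0.158) and rho -0.52 (permutation p = 0.102, adjusted p = 0.204), with r at -0.60 without them. For Nfil3, r was -0.28 (permutation p = 0.447, adjusted p = 0.596) and rho -0.29 (permutation p = 0.429, adjusted p = 0.529), with r at 0.01 without them. For Dbp, r was -0.16 (permutation p = 0.608, adjusted p = 0.608) and rho -0.21 (permutation p = 0.529, adjusted p = 0.529), with r at -0.32 without them. None passed 0.05 after adjustment over the 4 genes. The part of the mitochondrial share in the relations between Hlf and the other genes was not tested.

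**Figure D4:**
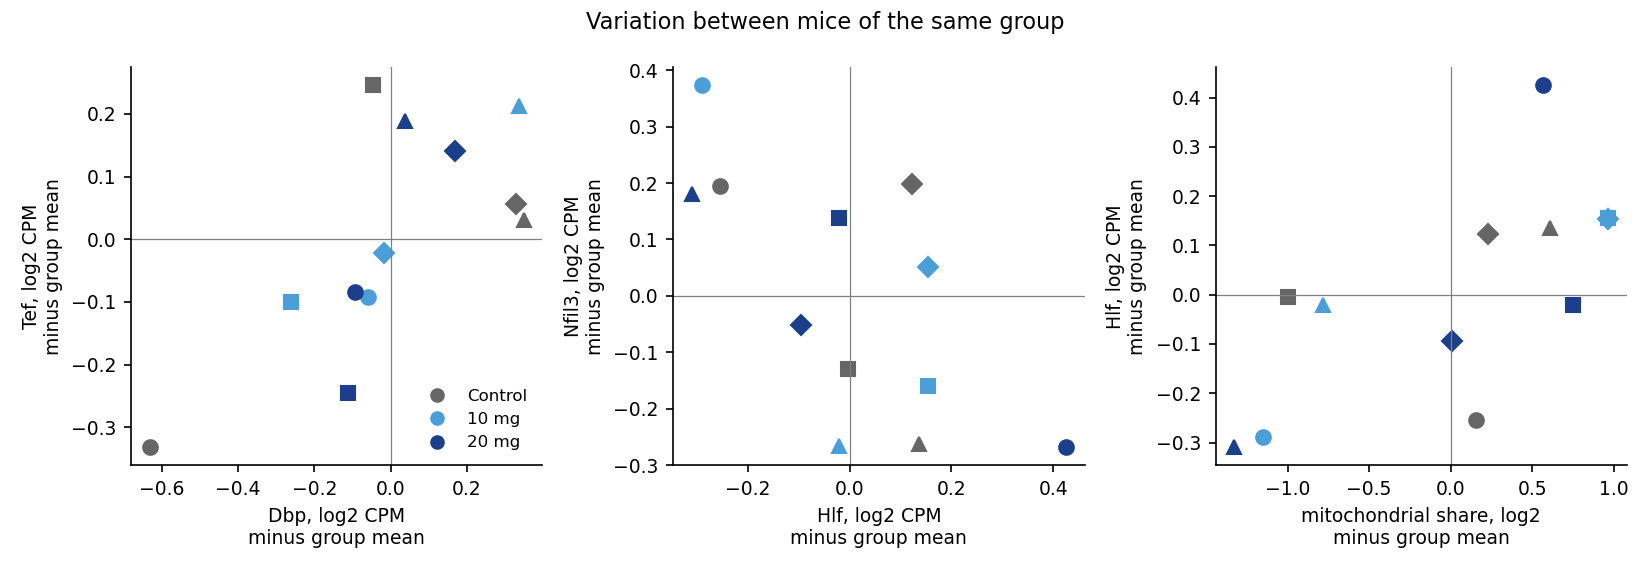
Deviations from the group mean, 1 point per mouse coloured by group, of log2 CPM of Tef against Dbp (left), Nfil3 against Hlf (middle) and Hlf against the log2 mitochondrial share (right). Dbp and Tef deviate together (r 0.71), Hlf and Nfil3 in opposite directions (r -0.67) and Hlf with the mitochondrial share (r 0.67).

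The genes whose log2 CPM was most like that of each member over the 12 mice are given by Pearson r, a description in which differences between groups and between mice are not separated. For Dbp the highest were Per3 (0.97), Srsf11 (0.92) and A830021M18Rik (0.92), and the lowest Ypel2 (-0.97), Ppard (-0.94) and Bmal1 (-0.93). Among the members, Dbp had an r of 0.89 with Tef, 0.17 with Hlf and -0.94 with Nfil3. For Tef the highest were Dtwd2 (0.94), Per3 (0.91) and Nr1d2 (0.90), and the lowest Ypel2 (-0.93), Npas2 (-0.92) and Bmal1 (-0.92), with -0.85 for Nfil3 and 0.11 for Hlf. For Nfil3 the highest were Ppard (0.91), Ypel2 (0.89) and Bmal1 (0.89), and the lowest Per3 (-0.93), Pck1 (-0.91) and Nr1d2 (-0.90). Hlf had a separate set, with Ppil6, Ift74 and Cert1 each at 0.90 and Wdr53 (-0.92), Hspb8 (-0.91) and Eipr1 (-0.91) at the other end, none of them called, and an r of -0.37 with Nfil3.

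The genes named for their likeness to a member were picked over all 12 mice, with the differences between groups included. Their differences from the control group thus follow in part from that choice, and nothing is read from their calls. Of these genes, Ppard was decreased at 10 mg (log2 fold change -0.98, adjusted p = 0.00899) and at 20 mg (-1.03, adjusted p = 0.00346). Ypel2 was decreased at 10 mg (-1.01, adjusted p = 0.0944) and at 20 mg (-1.35, adjusted p = 0.00463). Its call at 10 mg was lost in 8 of 12 fits that left out 1 library, those without 10 mg mouse 1, 3 or 4, 20 mg mouse 1 or 2 or control mouse 1, 2 or 3 (adjusted p up to 0.601). A830021M18Rik was increased at 20 mg (1.25, adjusted p = 0.0210). Pck1, which encodes a key enzyme of gluconeogenesis, was not called (0.65 at 20 mg, adjusted p = 0.295).

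Other clock genes were taken as 2 lists, the E-box arm (Per1, Per2, Per3, Cry2, Nr1d1, Nr1d2, Ciart, Bhlhe40 and Bhlhe41), which like the PAR bZIP genes is driven through E-boxes, and the RRE arm (Bmal1, Clock, Npas2, Cry1 and Rora), which like Nfil3 is regulated through ROR response elements. Of the 9 genes of the E-box arm, 1 was called higher at 10 mg, against 0.0117% of all genes tested, and 5 at 20 mg, against 0.169%, and 0 were called lower. Their median log2 fold change was 0.56 at 10 mg and 0.80 at 20 mg, against 0.01 over all genes tested at either dose, and 9 of 9 were above 0 at both doses, against 52.3% of all genes tested at 10 mg and 52.5% at 20 mg. Of the 5 genes of the RRE arm, 1 was called lower at 10 mg, against 0.0175% of all genes tested, and 3 at 20 mg, against 0.134%, and 0 were called higher. Their median was -1.02 at 10 mg and -1.21 at 20 mg, and 0 of 5 were above 0.

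Per3, a period gene of the E-box arm, was at 8.23, 12.3, 10.7 and 9.52 CPM in the control mice, at 18.9, 20.6, 24.1 and 22.5 CPM in the 10 mg mice and at 22.1, 27.5, 26.1 and 31.1 CPM in the 20 mg mice. No control mouse reached the level of any treated mouse. The log2 fold change of Per3 was 1.08 ± 0.15 (SE) at 10 mg (adjusted p = 0.0184) and 1.39 ± 0.15 at 20 mg (adjusted p = 0.00124). The call at 10 mg was lost without 10 mg mouse 3, control mouse 1 or control mouse 4, where the adjusted p reached 0.118. The start of Per3 is shown because it held 3 copies of the D-box variant, as Nfil3 did, at -140, -187 and -652 bases from the start. They are on the minus strand of GRCm39, with the variant in capitals. Per3 was not the only gene of the 2 lists with such letters. The windows of Nr1d2, Per2 and Rora held TTACGTAA, against 1.32% of all windows. The variant was also found in the windows of Ciart, Nr1d1, Nr1d2, Per2 and Rora, against 18.4% of all windows. No E-box was found in the windows of Per3 and Cry2 and no RORE in those of Cry1 and Rora, which says only that these letters are not there.

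Per3 D-box variant at chr4:151129273-151129280: cccgcccgcggTTATGTAAcccccgccgtg
Per3 D-box variant at chr4:151129320-151129327: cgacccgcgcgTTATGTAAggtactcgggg
Per3 D-box variant at chr4:151129785-151129792: ggtagagacagTTATGTAAaaggagcatcc

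Nr1d1, which encodes the nuclear receptor REV-ERB alpha, was at 20.7, 26.2, 31.0 and 29.3 CPM in the control mice, at 28.2, 58.1, 41.5 and 58.5 CPM in the 10 mg mice and at 78.5, 74.4, 40.1 and 75.9 CPM in the 20 mg mice. Mouse 3 of the 20 mg group lay well below the other 3 but above all control mice, and 10 mg mouse 1 lay among the control mice. The lowest mice of the treated groups, 10 mg mice 1 and 3 and 20 mg mouse 3, were those with libraries low in mitochondrial counts, while the control mouse with such a library was not the lowest of its group, and the part of this in the Nr1d1 levels was not tested. Without the 4 low libraries the log2 fold change was 1.11 at 10 mg (adjusted p = 0.00744) and 1.504 at 20 mg (adjusted p = 2.82e-05). Over all 12 mice the log2 fold change was 0.80 at 10 mg (adjusted p = 0.796) and at 20 mg was 1.33 ± 0.24 (adjusted p = 0.0487). That call was lost in 6 of 12 fits that left out 1 library, those without 20 mg mouse 1, 2 or 4 or control mouse 1, 2 or 4, where the adjusted p reached 0.172. Nr1d2, which encodes REV-ERB beta, was increased at 20 mg by a log2 fold change of 0.80 ± 0.14 (adjusted p = 0.0357), a call lost without control mouse 1, 3 or 4 (adjusted p up to 0.137). Ciart, a repressor of the Bmal1 and Clock dimer, was increased by 1.40 ± 0.27 (adjusted p = 0.0580), a call lost without 20 mg mouse 3 or 4 or any of the 4 control mice (adjusted p up to 0.209). Bhlhe41, another repressor at E-boxes, was increased by 1.46 ± 0.21 (adjusted p = 0.0144) and was called in 12 of 12 such fits.

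In the RRE arm, Bmal1, which encodes the partner of Clock, was at 28.0, 20.0, 19.7 and 20.1 CPM in the control mice, at 10.9, 11.4, 9.17 and 11.9 CPM in the 10 mg mice and at 9.43, 12.7, 10.3 and 5.76 CPM in the 20 mg mice. Control mouse 1 was the highest, and all treated mice lay below all control mice. The log2 fold change was -1.02 at 10 mg (adjusted p = 0.229) and -1.21 ± 0.20 at 20 mg (adjusted p = 0.0340), and the call was lost without control mouse 1 (adjusted p = 0.111). Npas2, an alternative partner of Bmal1, fell from 24.3, 19.6, 29.4 and 24.5 CPM in the control mice to 9.10, 11.1, 6.69 and 9.63 CPM at 10 mg and 11.7, 11.9, 6.00 and 6.32 CPM at 20 mg, with no overlap with the control mice. Its log2 fold change was -1.42 ± 0.23 at 10 mg (adjusted p = 0.0792) and -1.44 ± 0.23 at 20 mg (adjusted p = 0.0258). The call at 10 mg was lost without 10 mg mouse 1, 3 or 4 or control mouse 1, 3 or 4 (adjusted p up to 0.460). Cry1, a cryptochrome repressor, changed by -1.12 on the log2 scale at 10 mg (adjusted p = 0.596) and by -1.32 ± 0.28 at 20 mg (adjusted p = 0.0897), a call lost in 9 of 12 such fits, those without any of the 4 control mice, any of the 4 20 mg mice or 10 mg mouse 3 (adjusted p up to 0.322).

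Genes described elsewhere, mostly in liver, as dependent on PAR bZIP factors or Nfil3 were taken as a list of 17 D-box targets (Pdxk, Nr1i3, Por, Alas1, Cyp2b10, Cyp2a4, Cyp2a5, Acot1, Acot2, Acot3, Acot4, Cyp4a10, Cyp4a14, Lpl, Upp2, Fgf21 and Cyp7a1). Of these, 14 passed the filter on low counts, and Nr1i3, Fgf21 and Cyp7a1 did not. The name of the list rests on those descriptions and not on motifs found here. Within 2500 bases of their starts, TTACGTAA was found in none of the 17 genes, against 1.32% of all windows. The variant TTATGTAA was found there only in Lpl, Pdxk and Upp2, against 18.4% of all windows. At 10 mg 0 of 14 were called by edgeR, where 973 of all genes tested had an unadjusted p under 0.05, DESeq2 and limma-voom also called 0, the median log2 fold change was 0.06 and 9 of 14 were above 0, against 52.3% of all genes tested. At 20 mg 2 were called higher, against 0.169% of all genes tested, and 0 lower, against 0.134%. The median at 20 mg was 0.43 and 14 of 14 were above 0, against 52.5% of all genes tested. Some lay within 1 SE of 0, such as Por (0.004 ± 0.19), Pdxk (0.03 ± 0.17) and Acot4 (0.04 ± 0.12). Of the 14, 3 had all 20 mg mice above all control mice, against 2.67% of all genes tested, and 0 had them below. Between the doses 0 were called and the median was 0.37, with 12 of 14 above 0, against a median of -0.00331 and 49.4% above 0 over all genes tested. Whether the list differed between doses was not tested as a list.

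The called targets were Cyp2a5 and Alas1. Cyp2a5, a cytochrome P450 gene, was at 99.6, 105, 136 and 129 CPM in the control mice, at 166, 152, 227 and 134 CPM in the 10 mg mice and at 275, 222, 399.9 and 366 CPM in the 20 mg mice. The 20 mg mice lay above all control mice, while 10 mg mouse 4 lay among them. Its log2 fold change was 0.53 at 10 mg (adjusted p = 0.812) and 1.42 ± 0.20 at 20 mg (adjusted p = 0.0134), and it was called in 12 of 12 fits that left out 1 library. Reads of Cyp2a5 and its close paralog Cyp2a4, and those of the Acot genes, may not be told apart by the counting, so their separate levels are uncertain. Alas1, which encodes the first enzyme of heme synthesis, was at 72.1, 55.8, 66.5 and 69.5 CPM in the control mice, at 109, 75.4, 109 and 91.9 CPM in the 10 mg mice and at 120.2, 101, 97.8 and 117 CPM in the 20 mg mice. Control and treated mice did not overlap. Its log2 fold change was 0.54 at 10 mg (adjusted p = 0.679) and 0.72 ± 0.14 at 20 mg (adjusted p = 0.0567), a call lost without 20 mg mouse 1, 2 or 4 or any of the 4 control mice (adjusted p up to 0.205). Cyp2b10 had the largest log2 fold change of the list at 20 mg, 1.66 ± 0.56, but was not called (adjusted p = 0.419). Its values, 0.554 to 2.83 CPM in the control mice and 1.56 to 7.79 CPM in the 20 mg mice, overlapped.

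The C/EBP family (Cebpa, Cebpb, Cebpd, Cebpe, Cebpg and Ddit3) binds related DNA elements. Of 6 genes 5 were tested, Cebpe having too few counts, and edgeR called 0 at 10 mg and 0 at 20 mg, where 973 and 1450 of all genes tested had an unadjusted p under 0.05. DESeq2 and limma-voom also called 0 at both doses. The median log2 fold change was 0.22 at 10 mg and 0.29 at 20 mg. The largest at 20 mg were Cebpb (1.04 ± 0.44, adjusted p = 0.533) and Cebpd (0.55 ± 0.29, adjusted p = 0.649).

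**Figure D5:**
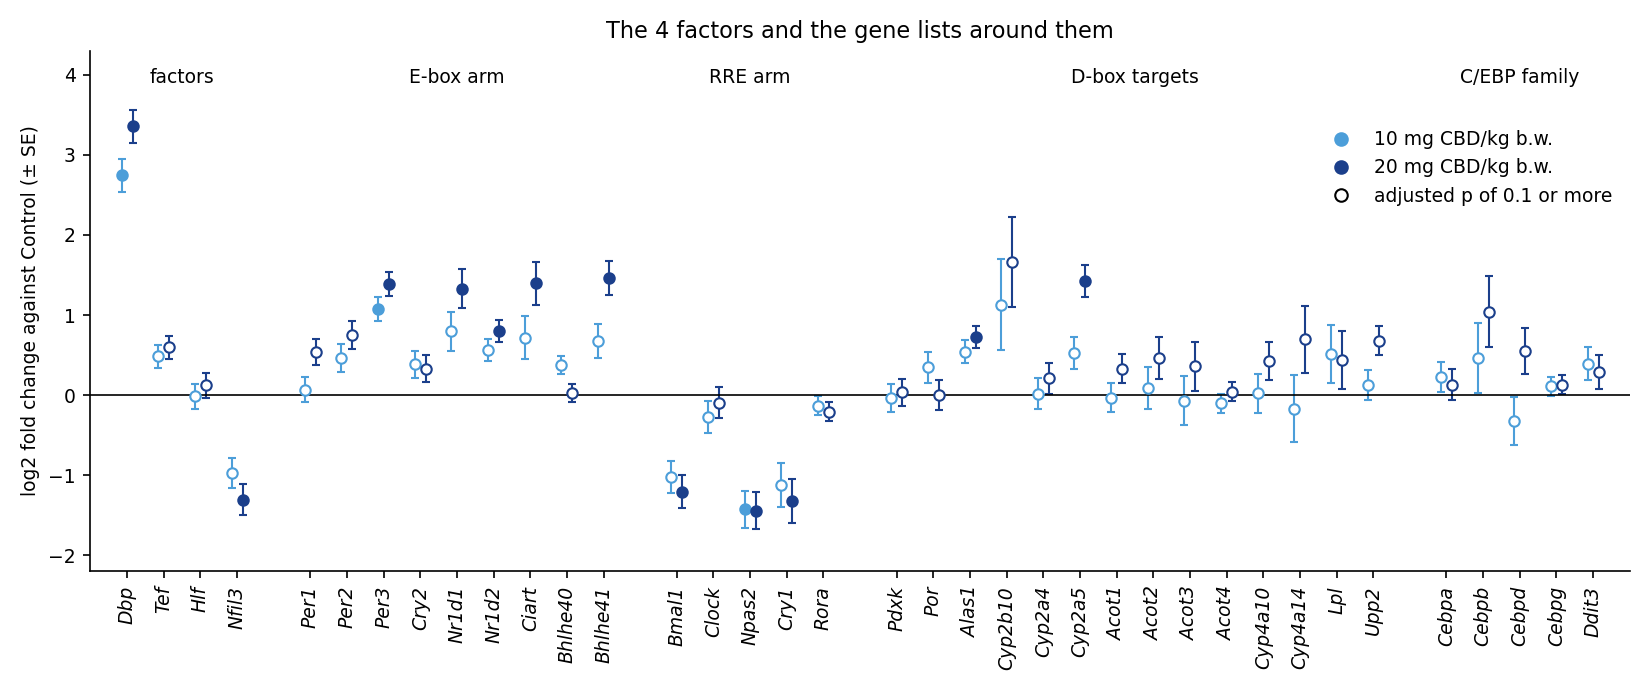
Log2 fold change against the control group with its SE at 10 mg (light) and 20 mg (dark) for the 4 factors and each tested gene of the E-box arm, the RRE arm, the D-box targets and the C/EBP family, with open points where the adjusted p is 0.1 or more. For the 4 factors, which were chosen with these comparisons known, nothing is read from whether a point is open. The 9 points of the E-box arm lie above 0 and the 5 of the RRE arm below 0 at both doses. Some lie within 1 SE of 0, such as Bhlhe40 (0.03 ± 0.11) and Clock (-0.09 ± 0.20) at 20 mg.

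Without the 4 libraries low in mitochondrial counts, 3 genes of the E-box arm were called at 10 mg and 6 at 20 mg, 1 and 3 of the RRE arm, 0 and 3 of the D-box targets and 0 and 0 of the C/EBP family. Over all genes, 26 were then called at 10 mg and 107 at 20 mg.

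Markers of cell types were taken beside these results. The adipocyte markers (Adipoq, Plin1, Cfd, Fabp4 and Lep) summed to 209, 259, 96.0 and 229 CPM in the control mice, 135, 126, 67.8 and 89.7 CPM in the 10 mg mice and 67.9, 114, 92.1 and 104 CPM in the 20 mg mice. Control mouse 3 had less than the other control mice and lay among the treated mice. Fabp4, which other kidney cells also express, was the most abundant in every library. Adipoq was at 10.5, 19.2, 1.06 and 14.5 CPM in the control mice and at 6.98 CPM or less in the treated mice. Lep had no counts in control mouse 3, 10 mg mice 1 and 3 and 20 mg mice 1, 2 and 3, Adipoq had none in 20 mg mouse 1, and Plin1 and Cfd had none in 20 mg mouse 3. Of the 5 markers 4 were tested and 0 were called by edgeR, with a median log2 fold change of -1.62 at 10 mg and -2.84 at 20 mg. The part of adipocyte RNA in the results above was not tested.

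The proximal tubule markers (Lrp2, Slc34a1, Slc5a2 and Slc22a6) were abundant in every library. They summed to 6026, 6285, 6616 and 7670 CPM in the control mice, 5157, 5955, 6016 and 5269 CPM in the 10 mg mice and 5067, 4980, 5095 and 5401 CPM in the 20 mg mice. In this sum treated mice lay below control mice, the nearest at 6016 against 6026 CPM, and Slc34a1 was the most abundant in every library. The markers differed from each other. Lrp2 averaged 2227, 1853 and 1319 CPM in the control, 10 mg and 20 mg groups, with no overlap between the 20 mg and control mice. Slc34a1 averaged 3553, 2882 and 3037 CPM and Slc22a6 652, 672 and 637 CPM, both with overlap between control and treated mice. Slc5a2 was called lower at 20 mg (log2 fold change -0.61 ± 0.12, adjusted p = 0.0820), 1 of 4 markers, against 0.134% of all genes tested. That call was lost without any of the 4 control mice or any of the 4 20 mg mice (adjusted p up to 0.273). The part of the proximal tubule in the changes of the 4 genes was not tested.

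Immune markers (Ptprc, Cd3e, Ncr1, Cd79a, Adgre1, Lyz2 and S100a8) were followed because Nfil3 also acts in immune cells. They summed to 27.5 to 31.5 CPM in the control group, 21.5 to 35.6 CPM in the 10 mg group and 24.3 to 34.7 CPM in the 20 mg group, with Lyz2 the most abundant and 0 of 5 tested genes called by edgeR. Endothelial markers (Pecam1 and Kdr) summed to 160.1 to 180.0 CPM, 146 to 168 CPM and 144 to 178 CPM in the same order. Of these, Kdr alone was lower in all 20 mg mice (63.1 to 78.9 CPM) than in all control mice (82.0 to 100.8 CPM) and was not called (log2 fold change -0.33, adjusted p = 0.419). Pecam1 went the other way, with overlap and means of 79.7, 80.4 and 89.4 CPM in the control, 10 mg and 20 mg groups. Markers of the thick ascending limb (Umod and Slc12a1) summed to 1052 to 1756 CPM in the control group, 1277 to 2328 CPM in the 10 mg group and 1205 to 1636 CPM in the 20 mg group. They overlapped, with a median log2 fold change of 0.33 at 10 mg and -0.02 at 20 mg. Markers of the collecting duct (Aqp2, Atp6v1b1 and Slc4a1) summed to 146 to 276 CPM over the 12 mice. Those of the distal convoluted tubule (Slc12a3 and Pvalb) summed to 519 to 860 CPM in the control group, 539 to 654 CPM in the 10 mg group and 458 to 558 CPM in the 20 mg group, with overlap and a median log2 fold change of -0.24 at 10 mg and -0.38 at 20 mg. The part of these lists in the changes of the 4 genes was not tested. Markers of neighbouring or distant tissue were at 5.69 CPM or less for the adrenal cortex (Cyp11a1, Cyp11b1, Star, Cyp21a1 and Hsd3b1), at 0.361 CPM or less for skeletal muscle (Acta1, Ckm and Myh4) and at 50.5 to 118 CPM for liver (Alb, Apoa1 and Ttr). Among the liver markers Ttr was the most abundant in every library, at 39.8 to 105.9 CPM. Alb was at 5.51 to 19.0 CPM and Apoa1 at 2.18 to 15.4 CPM. Whether any of these counts came from liver was not tested. Genes of these marker lists other than Slc5a2 were not called by edgeR at either dose.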

How the data were processed

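Kidney RNA of 12 mice was sequenced, and the deposited files hold raw read counts per gene, which the authors made, per the submitters' notes, with FastQC 0.11.9, Flexbar, STAR 2.7.5c and HTSeq 1.99.2 on GRCm39. Totals per library were 15417867 to 23532088 counts (median 18193787.5). Summary lines were left out: no_feature was 12.1% to 19.9% and ambiguous 4.72% to 5.29% of counts. Gene identifiers were matched to GENCODE vM39 (99.0% of identifiers, 99.95% of counts), which also gave positions, lengths of canonical transcripts and GRCm39 sequence.

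The counts were fitted in R 4.3.3 with edgeR 4.0.16 (filterByExpr, leaving 17163 genes; TMM normalization; quasi-likelihood test over 3 groups of 4 mice). Genes with a Benjamini-Hochberg adjusted p under 0.1 over all genes tested were called. Log2 CPM used a prior count of 2. Correlations were tested by two-sided permutation within groups (100000 permutations). Tests of the members and their ratios between the doses were planned, but their p-values are not given, since values of the treated groups were known when the members were chosen. Dixon's ratio was used for mice far from their group. The code was tested on simulated data. The members and lists were chosen with earlier results of these data known, and some genes of the lists drawn up at the start are not reported, so that the counts and medians of the RRE arm cover 5 genes of a longer list. Genes named are the 4 members, called genes of the lists, the 2 genes of each list with the largest change at 20 mg, the 3 genes most and the 3 least like each member, and overlapping genes.

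Alternatives were RLE normalization, DESeq2 1.42.0 (at least 0.5 CPM in 1 library, with its own independent filtering), limma-voom (limma 3.58.1), no filter, at least 0.5 CPM in 1 library, only the groups compared, replicate number as a block, mitochondrial share as a covariate, mitochondrial genes removed, a prior count of 0.5, a threshold of 0.05, and leaving out each library. Chosen after seeing the data were the fit of the 8 libraries with over 10% mitochondrial counts, the length of all exons and the windows of 2500 bases on each side of a start. No pair of libraries of a group was identical, and the smallest chi-squared per gene between them was 11.6.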

Additional observations from a re-analysis of the deposited data

Results flagged for a closer look

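In each group of 4 mice, the highest or lowest mouse was compared with its nearest neighbour: where the gap between them, divided by the whole range of the group, exceeds Dixon's critical ratio for 4 values, the mouse lies far from the others. Chance gives about 1 in 20 groups, and 2 of 117 groups met it. Nr1d1 in 20 mg mouse 3 was at a log2 CPM of 5.33, where the other 3 mice of the group were at 6.22 or more, a ratio of 0.919. This library was the only 1 of the 20 mg group low in mitochondrial counts, at 5.54% against 14.0% to 23.4%. Bmal1 in control mouse 1 was at a log2 CPM of 4.81, where the next control mouse was at 4.34, a ratio of 0.940. Neither concerns the 4 members themselves, and their causes were not tested.

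Limits: each group held 4 mice and 1 library per mouse. Dbp in control mice rests on 34 to 58 counts per library. The time of day of killing is not given, and clock genes vary over the day. A difference between groups in that time, if there was any, cannot be told apart from the dose. Protein, DNA binding and the contribution of single cell types were not measured. Strand use in counting and reads shared between paralogs are uncertain.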

How the results depend on the processing

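Over the alternatives other than leaving out a library, the log2 fold change against the control group ranged at 10 mg and 20 mg from 2.57 to 2.80 and 3.32 to 3.41 for Dbp, 0.43 to 0.50 and 0.59 to 0.63 for Tef, -0.04 to 0.12 and 0.06 to 0.22 for Hlf, and -1.10 to -0.97 and -1.41 to -1.28 for Nfil3. Without 1 library, Hlf ranged from -0.09 to 0.07 at 10 mg and from -0.04 to 0.22 at 20 mg, on both sides of 0. With replicate number as a block they were 2.76 and 3.38 for Dbp and -0.98 and -1.28 for Nfil3, and Dbp differed between the doses by 0.62. The labels do not say that replicates of the same number share anything: over 12 pairs of libraries of the same number, r after removal of group means was -0.330 to 0.317, 4 were over 0.1, and 3 of 12 libraries were most like 1 of their own number among the libraries of the other groups. The difference in Dbp between the doses was 0.62 with no filter. The difference in Hlf between the doses was reversed with the mitochondrial share as a covariate (-0.0078) and was -0.022 to 0.24 when each library was left out, with the lowest value without 20 mg mouse 1.

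Without 1 library, the difference in balance between the doses was 0.34 to 0.66. The correlation of Tef and Hlf was 0.00362 with RLE normalization, a change of sign, and -0.39 to 0.21 without 1 library. That of Dbp and Hlf was -0.17 (without control mouse 1) to 0.42, that of Nfil3 and the mitochondrial share -0.48 to 0.00181 (without 10 mg mouse 1), and that of Dbp and Tef 0.44 to 0.84. Without 1 library, the correlation of Dbp and Nfil3 was -0.50 to -0.10 and that of Tef and Nfil3 -0.51 to -0.21. That of Dbp and the mitochondrial share was -0.31 to -0.03.

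Of the 4 members, Nfil3 at 10 mg and Tef at 20 mg were also called by DESeq2 and with the mitochondrial covariate, and Dbp between the doses with no filter, from which nothing is read. Over all genes tested, DESeq2 called 39 of 20073 at 10 mg and 175 of 20073 at 20 mg. With the mitochondrial covariate 13 of 17163 were called at 10 mg and 935 of 17163 at 20 mg. With no filter 256 of 40012 were called between the doses.

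Genes called at 10 mg (5) were 39 with DESeq2, 13 with the mitochondrial covariate, 331 with no filter, 26 in the 8 libraries with over 10% mitochondrial counts, 3 at a threshold of 0.05, 4 with the block, and 2 to 8 without 1 library (2 without control mouse 1 or 10 mg mouse 3, 8 without 10 mg mouse 2). At 20 mg (52) they were 175, 935, 416, 107, 23 and 27 in the same order, and 14 to 54 without 1 library (14 without control mouse 1, 2 or 4). Between the doses (0, with 1083 at an unadjusted p under 0.05) they were 12 with DESeq2, 29 with the mitochondrial covariate, 256 with no filter and 0 with the block.

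In the E-box arm, genes called at 10 mg (1) were 2 with DESeq2, 2 with the mitochondrial covariate, 3 with no filter, 3 in the 8 libraries and 0 to 1 without 1 library. At 20 mg (5) they were 2 to 5 without 1 library, with 2 without control mouse 1 or 4. Between the doses 1 was called with no filter. In the RRE arm, genes called at 10 mg (1) were 3 with DESeq2, 2 with the mitochondrial covariate, 3 with no filter, 2 with only the groups compared, 0 with the block, 0 at a threshold of 0.05 and 0 to 2 without 1 library. At 20 mg (3) they were 1 to 3, with 1 without control mouse 1. Of the D-box targets, 1 was called at 10 mg with no filter. At 20 mg (2) they were 5 with no filter, 1 at a threshold of 0.05 and 1 to 2 without 1 library. Between the doses they were 1 with DESeq2, 1 with the mitochondrial covariate and 3 with no filter. Of the C/EBP family, 1 was called at 20 mg with the mitochondrial covariate, 1 at 20 mg with no filter and 1 between the doses with no filter. The causes of these differences were not tested.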
